A study of Mus musculus with 20 samples.

Results

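The potassium channel genes of cultured mouse neural stem cells are described here, from RNA sequencing of neurospheres that were knockout or wild type for Egfl7. Members were the genes of the deposited table whose symbol is Kcn, a subfamily letter or letters, and a number, which gave 92 of 36724 genes and covers pore-forming and auxiliary subunits. Neurospheres are floating clusters grown from dissociated brain tissue, and they hold neural stem cells and their progeny. Egfl7, the deleted gene, codes for a secreted protein with EGF-like domains that is best known from blood vessels.

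The 20 libraries came from adult C57BL6 donors of 8 to 12 weeks, and all cultures were untreated and grown in medium with 20 ng/ml of EGF and of FGF. SVZ knockout and SVZ wild-type spheres came from the subventricular zone, with 3 libraries each, all from male donors, sphere round 1 and culture day 3. HC2 knockout and HC2 wild-type spheres came from the hippocampus, with 4 libraries each, all from male donors, round 2 and day 5. HC1 knockout spheres, 3 libraries from male donors, and HC1 wild-type spheres, 3 libraries from female donors, came from the hippocampus at round 1 and day 5. Sex and genotype therefore cannot be told apart in HC1, region and culture day cannot be told apart in SVZ against HC1, and round cannot be told apart from whatever else differed between the hippocampal series. Which part of Egfl7 was deleted, and in which cells, is not stated in the labels. Mouse numbers recur across groups: 4 pairs of libraries from different regions or rounds have the same number, genotype and sex, and whether they share an animal is not stated and was not tested. Nothing states that the libraries of a group came from separate cultures beyond their mouse numbers, so p-values measure the spread between these libraries.

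Potassium channels let potassium leave or enter cells down its gradient and so set the resting potential of glia and neural progenitors. Inward rectifiers of the Kcnj family and the tandem-pore Kcnk channels carry resting and leak currents, the voltage-gated families carry delayed and transient currents, and the Kcnn, Kcnma and Kcnt channels open with calcium or sodium. In the brain, astrocytes take up potassium released by active neurons mainly through Kcnj10, and the A-type channels of the Kcnd family with their Kcnip partners are best known from neurons.

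Some facts of the whole series bear on all results. Egfl7 was listed at 0 RPKM in all 4 HC2 knockout and all 3 HC1 knockout libraries, against 0.996 to 1.59 RPKM in HC2 wild types and 0.566 to 1.34 RPKM in HC1 wild types. In the SVZ it was 0.094, 2.86 and 0 RPKM in the libraries labelled knockout 1 to 3, and 1.73, 2.99 and 0 RPKM in those labelled wild type 1 to 3. The library labelled SVZ knockout 2 and the library labelled SVZ wild type 3 thus go against their labels. The count of called members and the differences of named members between SVZ genotypes are given with and without them. Other values that rest on SVZ genotype labels, among them differences of knockout effects, intervals and unadjusted counts, include them. Libraries held values for 19109 to 19586 genes in the SVZ, 20640 to 22204 in HC2 and 19589 to 20158 in HC1, and the 92 members had values in 64 to 76 of their number per library. The mean of log2(RPKM + 1) over 38 cell cycle genes, called the cell cycle mean below, was 6.45 to 6.63 in the SVZ, 1.67 to 5.72 in HC2 and 4.50 to 5.87 in HC1. Over 13 astrocyte markers the same mean was 4.90 to 5.93, 5.95 to 7.98 and 6.28 to 7.34 in these groups, in the same order, and 1 of them, Gjb6, was listed at 0 in 5 of the 6 SVZ libraries. Markers of other cell types were present to different degrees. The 9 endothelial markers summed to 3.76 to 8.23 RPKM in the SVZ, 0.977 to 2.39 in HC2 and 1.86 to 2.84 in HC1. In the SVZ most of this was Flt1, at 2.45 to 6.70 RPKM. Over all libraries Pecam1 was at most 0.198, Cdh5 at most 0.034 and Cldn5 at most 0.049 RPKM. The 8 microglial and macrophage markers summed to 4.66 to 9.001, 1.63 to 2.92 and 2.94 to 5.83 RPKM in these groups. Most of that was Cd68 and Itgam, with Cx3cr1 at 0 in all libraries. The 9 pericyte and fibroblast markers summed to 49.3 to 110 RPKM (SVZ), 21.95 to 56.5 (HC2) and 22.6 to 70.4 (HC1). These sums were led by Cspg4, at 12.6 to 64.6 RPKM, which is also counted among the oligodendrocyte precursor markers. Pdgfrb was at most 1.32, Rgs5 at most 0.63 and Col1a1 at most 0.432 RPKM, with Dcn and Lum below 0.1 RPKM throughout. The 17 neuroblast and neuron markers summed to 245 to 284 RPKM in the SVZ, 293 to 419 in HC2 and 349 to 434 in HC1, led by Map2 at 168 to 294 RPKM, with Slc17a6 at 0. In bulk RNA, fewer cells of a type and less RNA per cell cannot be told apart.

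Of the 92 members, 55 passed the filter of at least 0.5 RPKM in at least 3 libraries, 32 had values but did not pass and 5 were listed at 0 in all 20 libraries. Those at 0 were Kcnk15, Kcnk16, Kcnk18, Kcne3 and Kcnj1. The kept members included all 8 of the group of calcium- and sodium-activated pore subunits. That group, here and below, also counts Kcnu1, which is not known to be opened by either ion. Also kept were 22 of 32 voltage-gated Kv and KCNQ pore subunits, 8 of 15 inward rectifiers and 5 of 14 leak channels. The rest were 4 of 8 subunits of the Kcnh family, 6 of 11 auxiliary subunits of voltage-gated channels and 2 of 4 auxiliary subunits of the BK channel. The 92 genes together made up 0.0713 to 0.0996% of the summed RPKM in SVZ libraries, 0.0724 to 0.102% in HC2 libraries and 0.116 to 0.132% in HC1 libraries. Only 14 members averaged 10 RPKM or more over the 20 libraries, and the 4 highest held 44.7 to 63.0% of the members' summed RPKM in a library. A further 9 kept members reached the filter's minimum in 3 or more libraries of a single region and round: Kcnmb1, Kcna1 and Kcnn4 in the SVZ, Kcnj3 in HC1, and Kcnj9, Kcnj12, Kcnj13, Kcnh7 and Kcng4 in HC2. For these the filter itself favours a difference between groups.

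The highest member was Kcnj10, the main inward rectifier of astrocytes, with a mean of 123 RPKM over the 20 libraries. It was followed by Kcnip3, a calcium-binding partner of the Kcnd channels that is also known as a transcriptional repressor, at 116 RPKM, and by Kcnj16, which joins Kcnj10 in mixed channels, at 82.3 RPKM. Kcnd2 and Kcnd3, the pore subunits of A-type channels, averaged 76.6 and 44.1 RPKM. The leak channels Kcnk2, which is opened by stretch and lipids, and Kcnk1 averaged 31.3 and 25.0 RPKM. Kcna2 and Kcna6, delayed rectifiers of the Kcna family, averaged 28.3 and 15.5 RPKM, and Kcnc1, a fast delayed rectifier, 27.5 RPKM. Kcnmb4, an auxiliary subunit of the BK channel, averaged 19.2 RPKM, and Kcnn2, a small-conductance calcium-activated channel, 18.3 RPKM. The order above is of means only: Kcnj10 ranged from 26.2 to 253 RPKM and Kcnip3 from 63.0 to 202 RPKM over the libraries, so neighbours in it overlap widely. Kcnmb4 ranged from 14.2 to 27.1 RPKM in the SVZ, 12.6 to 23.0 RPKM in HC2 and 13.2 to 23.4 RPKM in HC1, so these groups overlapped throughout.

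**Figure D1:**
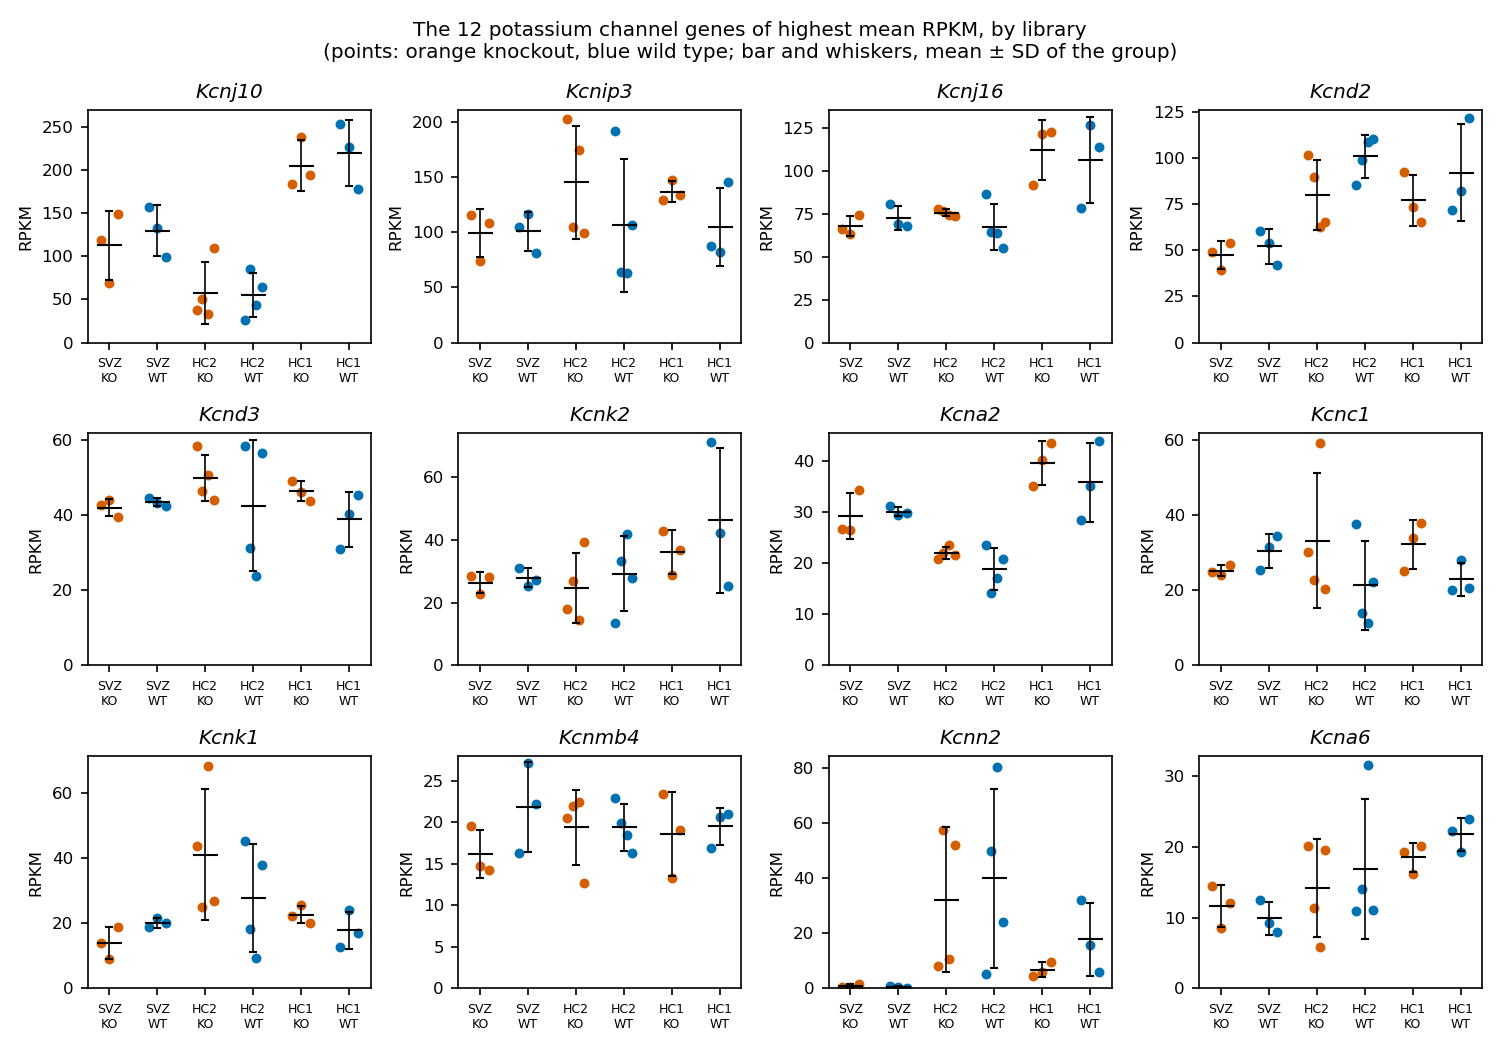
RPKM of the 12 potassium channel genes of highest mean in each library (points, orange for knockout and blue for wild type), with group mean and SD (3 libraries per SVZ and HC1 group, 4 per HC2 group). Kcnj10 was 26.2 to 110 RPKM in HC2 and 178 to 253 RPKM in HC1 libraries, and Kcnn2 stayed at or below 1.61 RPKM in all SVZ libraries.

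Potassium channel levels differed between SVZ and first-round hippocampal spheres mostly towards lower values in the SVZ. On log2(RPKM + 1), the average of the SVZ groups was set against that of the HC1 groups with limma, with Benjamini-Hochberg adjustment over all 16403 kept genes and a threshold of 0.05. Of the 55 kept members, 8 were higher and 20 lower in the SVZ, or 14.5% and 36.4%, beside 14.5% of all kept genes that were higher and 19.6% that were lower. Among them, Kcna1 and Kcnmb1, both higher, passed the filter through the SVZ alone, and Kcnj3, which was lower, through HC1 alone. The median log2 difference was -0.23 over the kept members and -0.03 over all kept genes. Calls by subfamily were 9 lower and 3 higher of 22 voltage-gated Kv and KCNQ subunits, 4 lower of 8 calcium- and sodium-activated subunits, 3 lower and 1 higher of 8 inward rectifiers, and 3 lower of 6 auxiliary subunits of voltage-gated channels. The remaining calls were 2 higher and 1 lower of 4 Kcnh subunits, 1 higher of 5 leak channels and 1 higher of 2 BK auxiliary subunits.

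Kcnn2 differed most in size. It was 0.455, 0.392 and 1.61 RPKM in SVZ knockout libraries and 0.836, 0.538 and 0.294 RPKM in SVZ wild-type libraries, against 4.35, 5.99 and 9.66 RPKM in HC1 knockout libraries and 32.0, 15.7 and 5.78 RPKM in HC1 wild-type libraries. All 6 SVZ libraries lay below all 6 HC1 libraries, and the log2 difference was -2.71 (SE 0.59, adjusted p = 0.00334). The highest HC1 value, in wild type 1, belonged to the HC1 library with the lowest cell cycle mean, 4.50, and with 149 RPKM of the astrocyte marker Gfap, against 2.31 to 10.4 RPKM in the other HC1 libraries. The related calcium-activated channels Kcnn1 and Kcnn3 were lower as well, at 1.16 ± 0.35 and 2.50 ± 1.00 RPKM in the SVZ and 2.26 ± 0.64 and 4.50 ± 0.60 RPKM in HC1 (SD, n = 6 each). Kcnn4, the intermediate-conductance member, did not pass, with a log2 difference of 0.15 and a 95% interval of -0.11 to 0.41.

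The glial inward rectifiers Kcnj10 and Kcnj16, the A-type subunit Kcnd2 and the partners Kcnip1 and Kcnip2 were also lower in the SVZ, while Kcnd3 and Kcnip3 were not called. Kcnj10 had a lowest, median and highest value of 69.2, 126 and 158 RPKM in the SVZ and 178, 211 and 253 RPKM in HC1, with no overlap and a log2 difference of -0.84 (SE 0.30, adjusted p = 0.0404). Kcnj16 averaged 70.2 ± 6.4 RPKM in the SVZ and 109 ± 20 RPKM in HC1, with 1 HC1 wild-type library at 78.3 RPKM inside the SVZ range (log2 difference -0.61, adjusted p = 0.0018). For the A-type pore subunit Kcnd2, SVZ libraries ranged from 39.6 to 60.6 RPKM and HC1 libraries from 65.6 to 122 RPKM, and its log2 difference was -0.73 (adjusted p = 0.00236). Its paralogue Kcnd3 ranged over 39.4 to 44.7 RPKM in the SVZ, within the HC1 range of 31.0 to 49.1 RPKM. Of the Kcnip partners, Kcnip1 fell to 7.62 ± 1.92 RPKM in the SVZ, against 17.7 ± 4.1 RPKM in HC1, and Kcnip2 to 1.10 ± 0.29 RPKM, against 3.13 ± 1.42 RPKM (SD, n = 6 each). Kcna6 and Kcnab1, a Kcna pore subunit and a cytoplasmic beta subunit that speeds inactivation of Kcna channels, were lower by 0.86 and 0.66 on the log2 scale, and Kcnab1 lay at 0 to 0.693 RPKM in the SVZ.

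Fewer members were higher in the SVZ, and all of them were at modest levels. Kcnk5, an alkali-activated leak channel, ranged from 3.07 to 5.09 RPKM in the SVZ and from 0.333 to 1.87 RPKM in HC1, without overlap, for a log2 difference of 1.14 (SE 0.24, adjusted p = 0.00267). Kcnh8 and Kcnh2, voltage-gated channels of the Kcnh family of which Kcnh2 also carries a cardiac repolarising current, rose to 1.94 ± 0.45 and 11.4 ± 1.7 RPKM in the SVZ, against 0.512 ± 0.242 and 6.33 ± 1.39 RPKM in HC1 (SD, n = 6 each). Kcna3, best known as a channel of immune cells and also found in proliferating glia, averaged 8.88 ± 1.37 RPKM in the SVZ and 4.52 ± 1.10 RPKM in HC1. Kcng1, a silent subunit that modifies Kcnb channels, and Kcnj4, a strong inward rectifier, were higher by 0.49 and 0.49 on the log2 scale. The other higher calls, Kcna1 and Kcnmb1, averaged under 1 RPKM in all regions, and Kcnmb1 overlaps Kcnip1 on chromosome 11, so that their reads may not be told apart if counting ignored strand.

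All 28 calls kept their sign when male knockout libraries alone were compared, and 5 of them passed there, with 3 libraries against 3. Of all kept genes, 432 were higher and 726 lower there. These libraries are part of those that gave the calls, which favours the same sign. The share of all called genes that kept their sign was not computed. With no filter on low values only 4 members were called, beside 284 higher and 539 lower of all 36724 genes. The cell cycle mean was also fitted as a covariate over the 20 libraries, an alternative added after the data were seen. It gave 25 called members, 19 of them among the 28, beside 1448 higher and 2425 lower of all kept genes. Kcnj10 was no longer called, at -0.44 (adjusted p = 0.252). Calls were also lost for Kcna6, Kcnip2, Kcnj3, Kcna3 and Kcng1, with adjusted p of 0.146, 0.153, 0.210, 0.0787 and 0.0790. The astrocyte mean was lower in every SVZ library than in every HC1 library and 6 of its 13 markers were called lower. Of other lists, 6 of 14 kept neuroblast and neuron markers were lower and 4 higher, 4 of 9 oligodendrocyte markers and 3 of 9 precursor markers were lower, and 10 of 38 cell cycle genes were higher. The part of these cells in the channel differences was not tested.

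**Figure D2:**
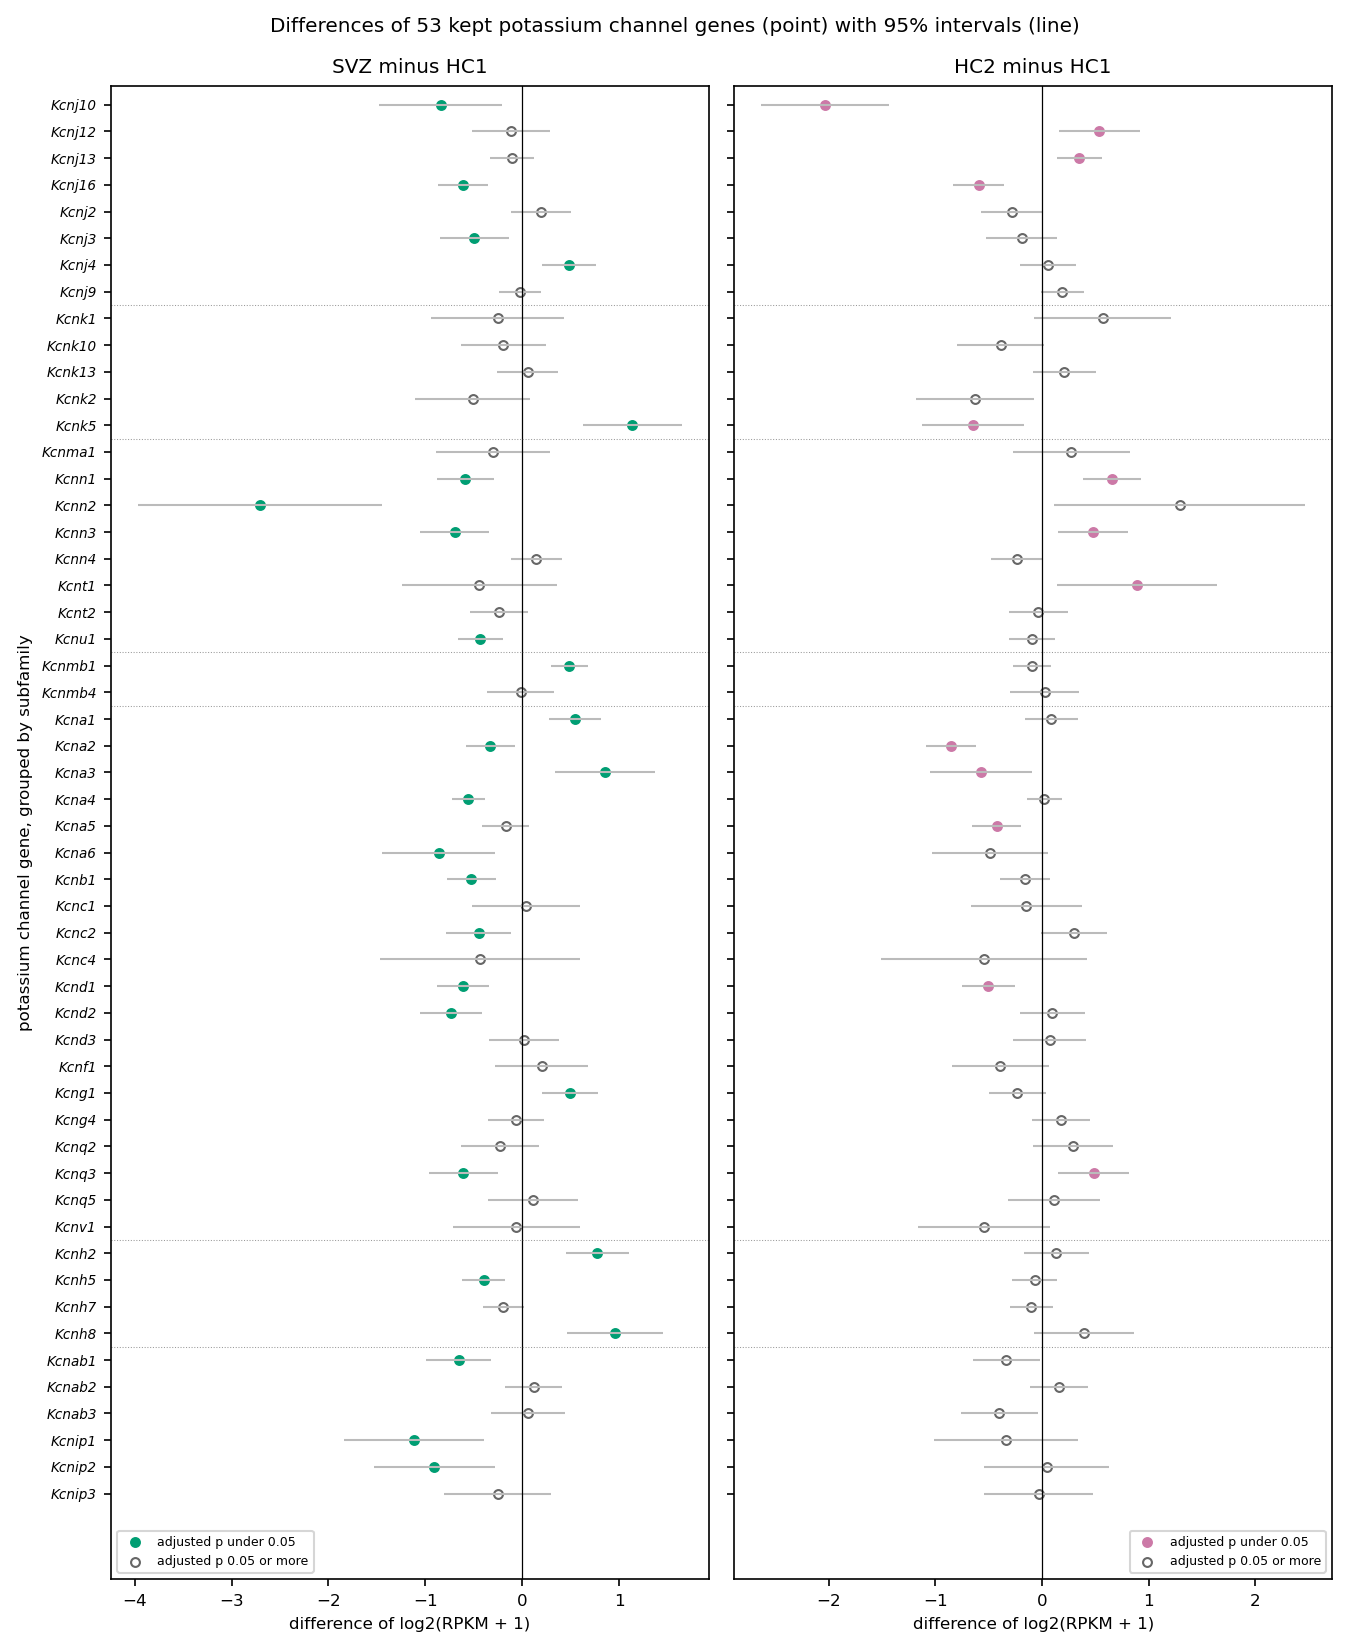
Difference of log2(RPKM + 1) with its 95% interval for 53 of the 55 kept potassium channel genes, SVZ minus HC1 (left) and HC2 minus HC1 (right), grouped from top to bottom as inward rectifiers, leak channels, calcium- and sodium-activated subunits, BK auxiliary subunits, voltage-gated Kv and KCNQ subunits, Kcnh subunits and auxiliary subunits of voltage-gated channels. Filled points passed adjusted p 0.05: of those drawn, 8 were higher and 19 lower in the SVZ, and 6 were higher and 7 lower in HC2.

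Second-round hippocampal spheres differed from first-round ones in fewer potassium channel genes, but with a large fall of Kcnj10. HC2 libraries had 7 members higher and 8 lower than HC1 libraries, or 12.7% and 14.5% of the 55, beside 22.8% and 31.5% of all kept genes. Of those higher, Kcnj12 and Kcnj13 passed the filter through HC2 alone, which favours such a call. The median log2 difference was -0.04 over the members and -0.06 over all kept genes. Because HC1 serves both comparisons, their values are given side by side and not correlated.

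Kcnj10 was 37.5, 50.1, 32.6 and 110 RPKM in HC2 knockout libraries and 26.2, 86.0, 43.5 and 64.1 RPKM in HC2 wild-type libraries, against 184, 239 and 194 RPKM in HC1 knockout libraries and 253, 228 and 178 RPKM in HC1 wild-type libraries. Every HC2 library lay below every HC1 library, with a log2 difference of -2.04 (SE 0.28, adjusted p = 1.23e-05). Its mixed-channel partner Kcnj16 was lower by less, at 71.5 ± 10.0 RPKM in HC2 (SD, n = 8) and 109 ± 20 RPKM in HC1 (SD, n = 6), with a log2 difference of -0.59. Kcna2 ranged from 14.1 to 23.6 RPKM in HC2 and from 28.4 to 43.9 RPKM in HC1, also without overlap (log2 difference -0.85). In the 3 HC2 libraries whose cell cycle means of 5.42, 5.50 and 5.72 lay within the HC1 range, knockouts 1 and 7 and wild type 2, Kcnj10 was 37.5, 32.6 and 26.2 RPKM, below all HC1 libraries. Their astrocyte means were 6.31, 6.33 and 5.95, beside 6.28 to 7.34 in HC1. These libraries were picked after their values were seen, and the part of either mean in the fall of Kcnj10 was not tested. Kcnk5, Kcna3 and Kcnd1, an A-type pore subunit, were lower by 0.65, 0.57 and 0.51 on the log2 scale, and Kcnk5 and Kcna3 overlapped between the rounds. Kcna5, a delayed rectifier of the Kcna family at low level, was lower by 0.43.

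Calcium-activated, sodium-activated and KCNQ channels were among those higher in HC2. Kcnn1 was 3.74, 4.25, 3.17 and 4.10 RPKM in HC2 knockout libraries and 3.67, 4.57, 4.50 and 4.56 RPKM in HC2 wild-type libraries, against 1.53 to 2.85 RPKM in HC1 knockouts and 1.87 to 3.20 RPKM in HC1 wild types. Its log2 difference was 0.65 (SE 0.13, adjusted p = 0.000394), and 1 HC2 library lay just inside the HC1 range. Kcnt1, a sodium-activated channel, Kcnn3 and Kcnq3, which carries the M current of neurons, were higher by 0.89, 0.48 and 0.48 on the log2 scale with overlapping ranges. The low inward rectifiers Kcnj12 and Kcnj13 were also called higher, at 0.792 ± 0.568 and 0.563 ± 0.237 RPKM in HC2 and 0.204 ± 0.277 and 0.221 ± 0.164 RPKM in HC1 (SD, n = 8 and 6), and both passed the filter through HC2 alone.

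All 15 calls kept their sign among knockout libraries alone, where 8 passed, beside 2638 higher and 3650 lower of all kept genes. Here too these libraries are part of those that gave the calls, which favours the same sign. With the cell cycle mean as a covariate, 21 members were called but only 8 of the 15, beside 3653 higher and 4565 lower of all kept genes. Still called were Kcnj10, Kcna2, Kcnj16, Kcnd1 and Kcnn1, among others. Kcnk5, Kcna3, Kcnn3, Kcnq3, Kcnj12 and Kcnj13 were not, and Kcnt1 changed sign to -0.09. With no filter on low values 9 members were called, with libraries weighted by their spread 25, and without HC2 wild type 2 23. Over all genes, 3091 were higher and 3461 lower of 36724 with no filter. Of the 16403 kept genes, 4333 were higher and 5742 lower with the weights, and 3925 and 5511 without that library. With values scaled to a common upper quartile 8 members were higher and 7 lower, beside 4711 higher and 4316 lower of all kept genes against 3738 and 5166 as deposited. The cell cycle genes were lower in HC2, with 28 of 38 called, and 5 of 13 astrocyte markers were called higher and 1 lower. Oligodendrocyte markers were lower in 6 of 9 cases, precursor markers lower in 6 and higher in 2 of 9, and neuroblast and neuron markers lower in 5 and higher in 2 of 14, and the part of these cells was not tested.

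The genes most like Kcnj10 over all 20 libraries were sought among all kept genes by Pearson r of log2(RPKM + 1), as a description of libraries that share group and round. The highest was Atp1b2, the glial beta subunit of the sodium-potassium pump, with r = 0.955 and means of 145 RPKM in the SVZ, 83.6 RPKM in HC2 and 244 RPKM in HC1. Ammecr1l, Syt11, Sema4g and Rab18 followed with r of 0.950, 0.944, 0.940 and 0.938. Among the members, r was 0.775 for Kcna5 and 0.706 for Kcna2.

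Within HC2, some potassium channel genes rose and fewer fell with how strongly a library expressed cell cycle genes, and most were not called. The cell cycle mean was 5.42, 3.74, 5.50 and 3.35 in HC2 knockouts 1, 4, 7 and 8, and 5.72, 2.57, 1.67 and 3.48 in HC2 wild types 2, 3, 5 and 6. A gap separates the 3 libraries at 5.42 and above from the 5 at 3.74 and below, so no correlation over the 8 is given. The slopes below rest in part on the same gap, so a value per unit need not hold within either set of libraries. A slope on the cell cycle mean, fitted with genotype as a term, was positive for 14 and negative for 6 of the 55 kept members, or 25.5% and 10.9%, beside 15.9% and 8.21% of all kept genes. Of these members, Kcng4 with a positive and Kcnj12 with a negative slope passed the filter through HC2 alone. Of the 20 called slopes, 18 had the same sign among the 5 lower libraries alone, and the exceptions were Kcnip1 and Kcnv1. This check was added after the data were seen. It lends no support, since the 5 libraries are part of the 8 that gave the calls. The share over all called genes was not computed. Slopes of the same sign included values near 0, such as 0.04 for Kcnk5, 0.05 for Kcng4 and -0.04 for Kcnc2. HC2 wild type 2, the highest library, carried many calls: without it 6 members were called, as against 1 with no filter on low values and 35 with libraries weighted by their spread. Over all kept genes, 586 slopes were called positive and 264 negative without that library, and 5196 and 4030 with the weights. With no filter they were 191 and 26 of 36724 genes. With values scaled to a common upper quartile, 11 slopes were positive and 6 negative, beside 1910 positive and 2101 negative over all kept genes against 2616 and 1347 as deposited.

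Members that rose with the cell cycle mean were pore and auxiliary subunits of several families. Kcnip3 was 202, 105, 174 and 98.9 RPKM in HC2 knockouts 1, 4, 7 and 8, with 191, 64.2, 63.0 and 107 RPKM in HC2 wild types 2, 3, 5 and 6, highest in the same 3 libraries as the cell cycle genes, with a slope of 0.43 log2 units per unit of cell cycle mean (SE 0.04, adjusted p = 0.000426). Kcnc4, a transient voltage-gated channel, was 9.43, 1.87, 16.96 and 1.98 RPKM in those knockouts, with 11.6, 2.74, 0.851 and 5.35 RPKM in those wild types, and its slope was 0.80 (SE 0.12, adjusted p = 0.00287). The leak channel Kcnk1 was 43.8, 25.0, 68.4 and 27.0 RPKM in the knockouts, with 45.4, 18.3, 9.45 and 38.0 RPKM in the wild types, with a slope of 0.52. Among the HC2 libraries these 3 genes were lowest in wild type 5, the library with the lowest cell cycle mean. Kcnip1, Kcnv1, which encodes a silent subunit, Kcnma1, the BK pore subunit, Kcnc1 and Kcnq5, a KCNQ channel, had slopes of 0.52, 0.46, 0.46, 0.44 and 0.30.

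Members that fell as the cell cycle mean rose were led by Kcnn2. It was 8.23, 57.5, 10.7 and 52.1 RPKM in HC2 knockouts 1, 4, 7 and 8 and 5.34, 49.8, 80.2 and 23.9 RPKM in HC2 wild types 2, 3, 5 and 6. The 3 libraries of highest cell cycle mean had 10.7 RPKM or less and the 5 others 23.9 RPKM or more, and the slope was -1.01 (SE 0.08, adjusted p = 0.000148). The stretch-sensitive leak channel Kcnk2 was 17.95, 26.8, 14.4 and 39.3 RPKM in the knockouts, with 13.4, 33.4, 41.9 and 28.0 RPKM in the wild types, with a slope of -0.43. Kcnt1 ranged from 0.825 to 9.28 RPKM, highest in wild type 5 and knockout 8, with a slope of -0.66, and Kcnq3 and Kcnc2, a fast delayed rectifier, had slopes of -0.24 and -0.20. For Kcnj10 the slope was -0.36 with an adjusted p of 0.0892. Astrocyte markers had slopes of the same sign as these members: knockout libraries had means of 6.31, 7.29, 6.33 and 7.84, wild-type libraries had means of 5.95, 7.69, 7.98 and 7.36, 9 of 13 had called negative slopes, and Gfap spanned 1.33 to 536 RPKM. The part of astrocyte-like cells in these slopes was not tested.

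**Figure D3:**
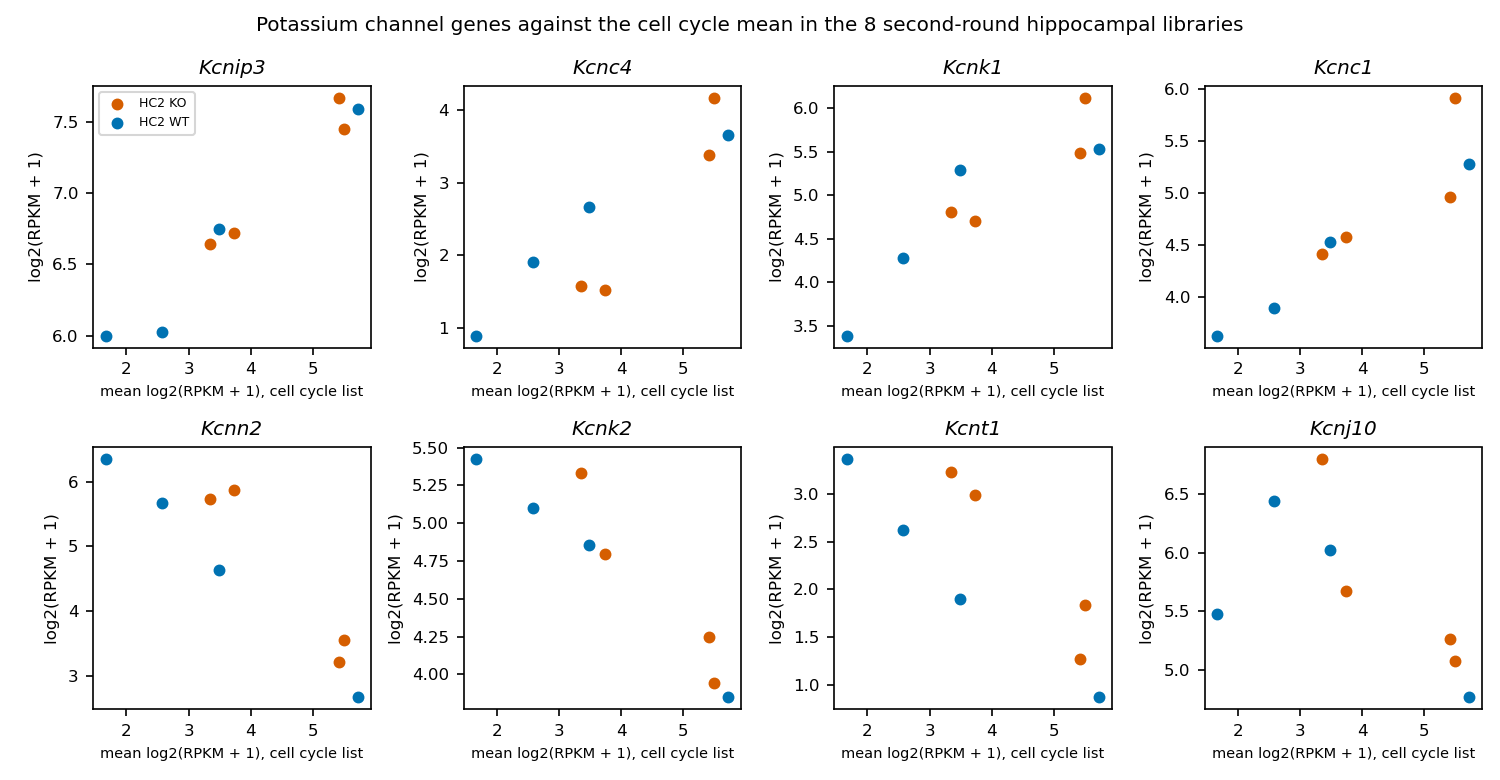
log2(RPKM + 1) of 8 potassium channel genes (vertical axis) against the mean log2(RPKM + 1) of 38 cell cycle genes (horizontal axis) in the 8 HC2 libraries, orange for knockout and blue for wild type. Kcnip3, Kcnc4, Kcnk1 and Kcnc1 rise to the right, Kcnn2, Kcnk2 and Kcnt1 fall, and Kcnj10, whose slope did not pass, is highest in HC2 knockout 8 and lower in the 3 libraries at the right.

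Promoter sequences of the members were read from RefSeq on build GRCm38.p6, as the 250 bases before the start given in its promoter table. Of the 55 kept members 42 had an entry, with 62 entries, and the sequences shown are of Kcnj10, the highest member, whose slope was not called, and of 4 members that rose together with the cell cycle mean, all picked after their values were seen. For Kcnc4 and Kcnc1 the start used lies inside the annotated gene, so part or all of the stretch shown does too. Capitals mark any match, on either strand, to the CCAAT box, to TTTGAA, the core of a cell cycle element, to the GC box GGGCGG, to TGGGAA, the core bound by the Notch factor Rbpj, to the E-box CACGTG or to the TATA box TATAAA. They lie at chr1:172340960-172341209 on the plus strand (Kcnj10), chr3:107458899-107459148 on the minus strand (Kcnc4), chr8:125994852-125995101 on the plus strand (Kcnk1), chr7:46396218-46396467 on the plus strand (Kcnc1) and chr14:20181783-20182032 on the minus strand (Kcnk5), each 5′ to 3′.
Kcnj10: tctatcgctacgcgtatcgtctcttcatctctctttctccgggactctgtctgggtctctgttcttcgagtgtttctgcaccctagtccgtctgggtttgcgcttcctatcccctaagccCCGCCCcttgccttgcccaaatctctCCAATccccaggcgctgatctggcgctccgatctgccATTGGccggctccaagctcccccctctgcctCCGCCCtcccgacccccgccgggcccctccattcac
Kcnc4: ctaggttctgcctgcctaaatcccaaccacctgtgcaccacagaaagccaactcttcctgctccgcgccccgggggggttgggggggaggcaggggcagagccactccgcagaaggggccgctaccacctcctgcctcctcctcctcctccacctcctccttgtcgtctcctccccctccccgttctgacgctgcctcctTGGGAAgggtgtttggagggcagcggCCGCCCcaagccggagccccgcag
Kcnk1: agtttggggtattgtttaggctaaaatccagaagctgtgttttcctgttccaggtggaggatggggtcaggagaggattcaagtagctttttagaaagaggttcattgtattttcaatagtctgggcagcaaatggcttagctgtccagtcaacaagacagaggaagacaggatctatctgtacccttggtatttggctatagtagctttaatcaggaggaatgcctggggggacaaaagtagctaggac
Kcnc1: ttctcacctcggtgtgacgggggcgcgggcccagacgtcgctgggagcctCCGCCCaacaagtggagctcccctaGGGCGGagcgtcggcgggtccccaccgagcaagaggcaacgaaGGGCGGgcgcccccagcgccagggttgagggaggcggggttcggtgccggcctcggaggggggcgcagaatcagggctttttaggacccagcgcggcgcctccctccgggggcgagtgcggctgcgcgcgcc
Kcnk5: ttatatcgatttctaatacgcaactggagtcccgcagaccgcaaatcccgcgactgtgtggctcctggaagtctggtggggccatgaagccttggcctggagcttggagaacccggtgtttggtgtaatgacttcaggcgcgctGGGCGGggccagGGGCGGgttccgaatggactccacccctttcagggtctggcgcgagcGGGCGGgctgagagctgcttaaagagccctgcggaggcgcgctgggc
Kcnj10 holds a CCAAT box on each strand, 104 and 67 bases before the start, and 2 GC boxes. Kcnc1 and Kcnk5 hold 3 GC boxes each, Kcnc4 holds 1 GC box and 1 TGGGAA, and Kcnk1 holds no match and no CG pair, with 44.4% G or C against 74.4% in Kcnc1. Over entries of kept members, GGGCGG was found in 41.9% and over all 32851 promoters in 32.7%, CCAAT in 35.5% and 33.8%, TTTGAA in 8.1% and 16.0%, TGGGAA in 22.6% and 21.6%, CACGTG in 6.5% and 6.0%, and TATAAA in 4.8% and 12.4%. Of the 17 entries of members with a called positive slope, 1 held TTTGAA and 5 held CCAAT. The median share of G or C was 58.8% over entries of kept members and 52.4% over all promoters, which include those of genes not kept. Its part in the motif shares was not tested. A match describes the letters only.

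Expression spread within HC2 was wide for many members. On log2(RPKM + 1), the pooled SD within genotype had a median of 0.36 over the 55 members and 0.25 over all kept genes, and 36 members lay above the median of all genes. HC2 was more spread than HC1 for 80% of members and 70.0% of all kept genes. The widest were Kcnn2, Kcnc4, Kcnt1, Kcnip1, Kcnk1 and Kcnv1, with SDs of 1.51, 1.25, 1.00, 0.91, 0.84 and 0.81. All 6 had called slopes on the cell cycle mean, but these slopes were fitted on the same HC2 libraries that gave the SDs. The share of called slopes among all kept genes of similar SD was not computed, so no conclusion is drawn from this count. The same 6 genes had SDs of 0.30 to 0.88 in HC1 and 0.25 to 0.63 in the SVZ. Picking genes by their spread in HC2 favours smaller SDs in the other groups.

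No potassium channel gene was called between knockout and wild type in the SVZ, HC2 or HC1. Of all kept genes, 0.0122% were called in the SVZ, 0.0244% in HC2 and 0.0122% in HC1, and at an unadjusted p under 0.05 stood 3, 0 and 1 of the 55 members, by limma. The count was also 0 in each alternative run, among them weighting of libraries, another pseudocount and the SVZ without the 2 libraries that go against their labels. The differences of knockout effects, HC2 minus HC1 and HC1 minus SVZ, gave 0 members too, beside 0.0244% and 0.0122% of all kept genes, with 1 and 0 members at an unadjusted p under 0.05. Median 95% intervals reached 0.49, 0.42 and 0.49 log2 units to either side in the SVZ, HC2 and HC1, which gives the precision of a single member before adjustment over all genes.

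The members of smallest p are given as values only. In the SVZ, Kcnf1, a silent voltage-gated subunit, was 1.27, 1.18 and 1.87 RPKM in knockout libraries 1 to 3 and 3.41, 3.51 and 4.70 RPKM in wild-type libraries 1 to 3. All libraries labelled knockout lay below all labelled wild type, including knockout 2 and wild type 3, whose Egfl7 went the other way. Its log2 difference was -1.001 (SE 0.32, adjusted p = 1.00), and -0.81 without those libraries. Kcnmb1, Kcnn3 and Kcnmb4 were next, with differences of 0.36, -0.49 and -0.40, and 0.51, -0.45 and -0.32 without those libraries. In HC1 the smallest p were those of Kcnu1, a channel known from sperm, Kcna4, an A-type channel, Kcnh2, Kcnq3 and Kcnab1, with differences of -0.37, -0.24, 0.45, -0.47 and -0.37 (adjusted p = 0.976 for each). In HC2 they were those of Kcna4, Kcnc1, Kcnd2, Kcnq3 and Kcnj13, with 0.20, 0.63, -0.36, -0.37 and 0.23 (adjusted p = 0.988 for each). Beside these, the median cell cycle gene was higher in HC2 knockouts by 1.23 and in HC1 knockouts by 0.47 on the log2 scale, with 0 of 38 called. With the cell cycle mean as a covariate in HC2 the count of members was 0 too. The differences of Kcna4, Kcnc1, Kcnd2, Kcnq3 and Kcnj13 were then 0.13, 0.13, -0.31, -0.09 and 0.33.

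**Figure D4:**
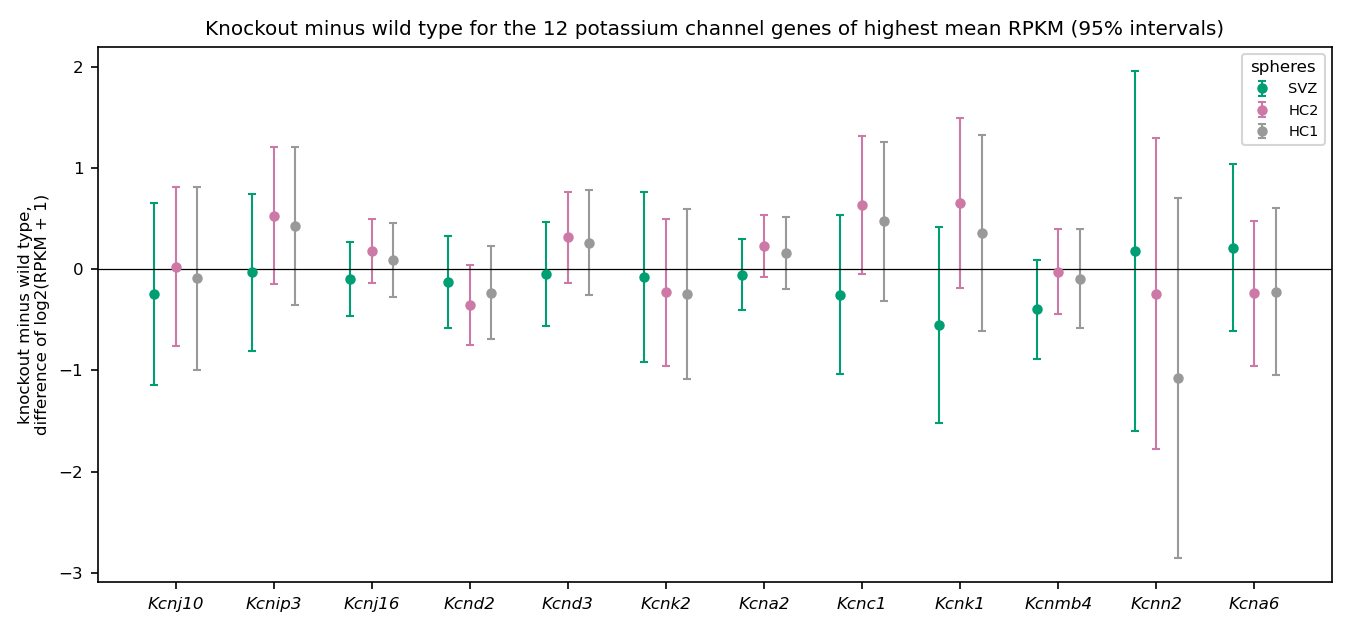
Knockout minus wild type, as the difference of log2(RPKM + 1) with its 95% interval, for the 12 potassium channel genes of highest mean RPKM in SVZ (green), HC2 (pink) and HC1 (grey) spheres. All 36 intervals cross 0, and those of Kcnn2 are the widest.

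The kept inward rectifiers besides Kcnj10 and Kcnj16 were low. Kcnj2, which sets the resting potential of many cells, averaged 2.08 ± 0.40 RPKM in the SVZ, 1.22 ± 0.42 RPKM in HC2 and 1.70 ± 0.48 RPKM in HC1, and was called in neither comparison with HC1. Kcnj4 averaged 1.60 ± 0.56, 0.898 ± 0.217 and 0.830 ± 0.203 RPKM in the same groups. The G protein-gated Kcnj3 and Kcnj9 had means per region and round of at most 0.574 RPKM and 0.356 RPKM, and Kcnj3 was lower in the SVZ by 0.50 on the log2 scale.

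Neighbouring members on GRCm38 did not always move alike. Kcna3 and Kcna2 lie 52.7 kb apart on chromosome 3, at 107036162 to 107038129 and 107090852 to 107115005, and in the SVZ Kcna3 was higher and Kcna2 lower than in HC1, by 0.86 and -0.33 on the log2 scale. In HC2 both were lower than in HC1. Kcnj9 and Kcnj10 lie 11.9 kb apart on chromosome 1, from 172320501 to 172329331 and from 172341210 to 172374085, and Kcnj9 averaged 0.356 RPKM in HC2, where Kcnj10 averaged 56.3 RPKM. Kcnj16 and Kcnj2 lie 38.2 kb apart on chromosome 11, and Kcnj16 exceeded Kcnj2 in every library.

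Other potassium transport genes and other cation channels were counted for context. Of 29 pumps, cotransporters, exchangers and Hcn channels, 20 were kept, of which 3 were higher and 5 lower in the SVZ than in HC1, and 4 higher and 6 lower in HC2 than in HC1. These are 15% and 25% of the list in the SVZ, beside 14.5% and 19.6% of all kept genes, and 20% and 30% in HC2, beside 22.8% and 31.5%. The glial pump subunit Atp1b2 was lower in the SVZ by 0.81, and Slc12a7, a potassium-chloride cotransporter, was higher by 1.38 on the log2 scale. In HC2, Atp1b2 and Atp1b3 were lower than in HC1 by 1.59 and 1.09, and Slc24a4, a potassium-dependent sodium-calcium exchanger, was higher by 1.03. Slopes on the cell cycle mean were called positive for 3 and negative for 4 of the 20, beside 15.9% and 8.21% of all kept genes. Of 32 voltage-gated sodium and calcium channel genes 23 were kept, with 1 higher and 7 lower in the SVZ, 3 higher and 1 lower in HC2, and no call for genotype.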

How the data were processed

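RNA was measured in 20 neurosphere libraries. Per the labels' protocols, Trizol extraction and removal of ribosomal RNA were followed by a stranded library kit, capture of exons and paired-end sequencing. The deposited values are RPKM per gene, read numbers scaled to gene length and library total, with decimal commas, and blank cells were read as 0. FastQC 0.11.5, DESeq2 and mm10 (GRCm38) are named per the submitters' processing notes; not given in the sources used here are the aligner, the counting with its use of strand, and the gene lengths. Read depth is unknown, since RPKM carries no totals, so the number of genes with a value stands in for it.

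Values were taken to log2(RPKM + 1) and the 16403 genes (44.7% of the table) with at least 0.5 RPKM in at least 3 libraries were fitted with limma 3.58.1 in R 4.3.3, with a trended and robust prior, on the 6 groups. Differences were those of knockout and wild type within SVZ, HC2 and HC1, their differences, SVZ minus HC1 and HC2 minus HC1 with genotypes weighted equally, and, in HC2 alone, a slope on the cell cycle mean with genotype as a term. P-values are two-sided, with Benjamini-Hochberg adjustment over all 16403 genes and a threshold of 0.05. The fits were tested on simulated data. Tables were handled with Python 3.11.15, pandas 2.3.3 and numpy 2.4.6, and figures drawn with matplotlib 3.10.9.

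Members and gene lists were chosen with earlier results of these data known. Named are the 12 members of highest mean, up to 8 called members per direction and comparison whose mean reached 1 RPKM in some group, the 5 of smallest p where fewer than 3 were called, the 6 of largest SD in HC2, all kept Kcnj genes, the 5 genes most like Kcnj10 and up to 4 called genes per direction of the potassium transport list. Other members named for their filter, their position or a low level were picked after their values were seen. Alternatives were another pseudocount, filter, scaling and weighting, each library left out, the knockout libraries alone, and a covariate. Some genes that meet these rules are counted but not reported here by name or drawn.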

Additional observations from a re-analysis of the deposited data

Results flagged for a closer look

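In groups of 4 libraries, a value was singled out when its gap to the nearest of the others, as a share of the group's range of log2(RPKM + 1), exceeded Dixon's 95% critical value, which chance gives in about 1 in 20 groups. Of 84 pairs of a named member and an HC2 genotype, 8 met this, 6 of them in HC2 wild type 2. Named members were in part picked for their slope or spread in these same libraries, and the pairs share libraries. The rate over all kept genes was not computed, so the count is no result about potassium channel genes. That library has the highest cell cycle mean of its group, 5.72, against 1.67 to 3.48 in the other HC2 wild types.

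Kcnk5 was 1.86 RPKM in HC2 wild type 2, against 0.077 to 0.155 RPKM in the other wild types. Kcnq5 was 4.06 RPKM there, against 1.05 to 1.35 RPKM, and Kcnab1 was 1.10 RPKM, against 0.246 to 0.343 RPKM. Kcnmb1 was 0.182 RPKM, with the others listed at 0. On the low side, Kcnn1 was 3.67 RPKM in this library, against 4.50 to 4.57 RPKM, and Kcnc2 was 0.435 RPKM, against 1.48 to 1.73 RPKM.

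Among the HC2 knockouts, Kcnmb4 was 12.62 RPKM in knockout 8, against 20.6 to 22.4 RPKM in the others, and Kcnd1 was 0.328 RPKM in knockout 1, against 0.679 to 0.719 RPKM.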

How the results depend on the processing

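The genotype counts stayed at 0 members in SVZ, HC2 and HC1, and for the differences of these effects, under each alternative run for them. Without a filter on low values, where all 36724 genes were tested, 4 members were called in SVZ against HC1, 9 in HC2 against HC1, and 1 for the slope in HC2, and the cause was not tested. Of all genes, 284 were then higher and 539 lower in SVZ and 3091 and 3461 in HC2. Slopes were then positive for 191 and negative for 26. Weighting libraries by limma's arrayWeights gave 25 in HC2 against HC1 and 35 slopes, and the cause was not tested. Of all kept genes, 4333 were then higher and 5742 lower in HC2, and 5196 slopes were positive and 4030 negative. Knockout libraries alone, which leave fewer samples, gave 5 in SVZ against HC1 and 8 in HC2 against HC1. All kept genes gave 432 higher and 726 lower in SVZ there, and 2638 and 3650 in HC2. Leaving out each library in turn gave 23 to 26 calls in SVZ against HC1, 12 to 23 in HC2 against HC1 and 6 to 19 slopes, with 23 and 6 both reached without HC2 wild type 2. With the cell cycle mean as a covariate, chosen after seeing the data, Kcnt1 in HC2 against HC1 reversed to -0.0893. Other settings gave 28 to 31, 13 to 17 and 17 to 22 calls in these comparisons.

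Replicate numbers were not used to pair libraries: deviations of same-numbered knockout and wild-type libraries correlated at -0.26 to 0.01 in SVZ and at -0.11 to -0.03 in HC1. A fit with the replicate block gave 0 calls in SVZ and 0 in HC1. No paired analysis was possible in HC2 because its genotypes share no replicate number. Over the alternatives, the named members among those called held their call in 272 cases and lost it in 68 in SVZ against HC1, in 262 and 45 in HC2 against HC1 and in 167 and 43 for the slope. Read depth is unknown, so members below 1 RPKM are the least certain.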
